A study of Homo sapiens with 8 samples.

Results

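The numbered zinc finger genes, whose symbols are ZNF followed by a number, encode mostly C2H2 zinc finger proteins, a very large family of DNA-binding proteins in humans. The members described here are those with a number below 600 and a mean of at least 100 counts over the 6 day 2 libraries. Of 257 such symbols among the 11644 genes of the day 2 table, 239 met this minimum and 18 did not. The rule thus used their symbol and their mean count over both genotypes, and not the difference between them. It was, however, set with earlier results of these data known. Just inside the count minimum lay ZNF169 (mean 101 counts) and ZNF571 (106), and just outside ZNF404 (86.5) and ZNF599 (78.3). RNA-seq had been made from the H1 human embryonic stem cell line, an established line kept in mTESR medium, either wild type (WT) or SETD7 KO. The product of SETD7 puts methyl groups on lysines of histone H3 and of other proteins. Undifferentiated cells (day 0) gave 1 library per genotype, and cells on day 2 of a hematopoietic differentiation gave 3 per genotype. How the knockout was made, and whether it is 1 clone or several, is not given in the sources used here, so clone and genotype cannot be told apart.

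Most ZNF proteins carry a row of C2H2 fingers, small zinc-binding folds that each contact a few bases of DNA. Many also carry a KRAB domain, which binds TRIM28 (KAP1) and through it SETDB1, an enzyme that places the repressive mark H3K9me3. These KRAB proteins are known for silencing transposable elements in embryonic stem cells and for lying in clusters of tandem copies on chromosome 19. SCAN domains, found in a smaller group, join such proteins in pairs. Other numbered genes were named for a finger only and act elsewhere, such as in the spindle or in RNA binding.

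In the translated coding sequences of the annotation, a KRAB motif was found in 152 of the 239 genes and a SCAN motif in 18, with 5 genes in both groups. The median number of C2H2 fingers was 11, from 0 to 33. The genes without a match were ZNF185, ZNF330 and ZNF503. On chromosome 19 lay 126 of the 239, of which 105 had a KRAB motif, followed by chromosome 7 with 14 and chromosome 16 with 13. The motif patterns are approximate and leave out some known KRAB genes.

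Sequences upstream of 4 of the genes are printed because their genes carry the results below. They come from RefSeq (GRCh38.p14), read 5′ to 3′ on the gene's own strand, and stop short of the transcript in GENCODE release 29. ZNF229 had the highest fold change, and its stretch (chr19:44448579-44448722, minus strand) has its 9 CG dinucleotides in capitals. ZNF90 (chr19:20077750-20077993, plus strand) and ZNF486 (chr19:20166964-20167203, plus strand) are neighbours that both rose. Of 240 aligned bases 221 were identical (92.1%), and capitals mark the bases that differ or have no partner in the other gene. ZNF121 (chr19:9584534-9584754, minus strand) has a match to ACTACAA, the core of a ZNF143 motif, in capitals.
ZNF229: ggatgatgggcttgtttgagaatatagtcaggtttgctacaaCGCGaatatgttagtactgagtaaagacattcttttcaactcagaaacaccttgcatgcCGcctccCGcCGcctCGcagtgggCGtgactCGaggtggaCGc
ZNF90: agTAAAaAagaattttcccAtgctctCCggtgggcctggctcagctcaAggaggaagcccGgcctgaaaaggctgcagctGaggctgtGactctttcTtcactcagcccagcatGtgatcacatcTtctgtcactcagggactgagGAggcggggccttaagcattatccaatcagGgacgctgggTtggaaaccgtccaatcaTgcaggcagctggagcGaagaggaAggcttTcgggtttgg
ZNF486: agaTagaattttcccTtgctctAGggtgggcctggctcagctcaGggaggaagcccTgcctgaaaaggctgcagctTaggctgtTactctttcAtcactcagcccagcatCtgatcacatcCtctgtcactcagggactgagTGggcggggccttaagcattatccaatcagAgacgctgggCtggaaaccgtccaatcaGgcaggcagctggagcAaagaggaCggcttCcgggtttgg
ZNF121: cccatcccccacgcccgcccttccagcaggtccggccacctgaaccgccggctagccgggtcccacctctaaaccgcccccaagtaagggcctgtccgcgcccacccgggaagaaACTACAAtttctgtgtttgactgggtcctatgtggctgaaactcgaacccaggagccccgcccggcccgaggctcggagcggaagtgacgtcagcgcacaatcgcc

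Upstream sequences of 213 of the 239 genes were in the RefSeq table. In the 250 bases before the start, on either strand, CCGGAAG (a core bound by ETS factors) was present in 34.7% of them, in 16.8% of 9075 genes tested at day 2 and in 8.82% of 27305 promoters. ACTACAA was present in 6.57%, 3.75% and 2.64% of the same sets. GCGCATG (NRF1) was present in 6.10% of the ZNF upstream sequences and 6.79% of those of tested genes. ATGGCGG (YY1) was present in 7.04% and 4.12%, a difference that depends on the window, since over 300 bases it was present in 10.8% of both. CTTTGAT (TCF/LEF) was present in 2.82% and 1.25%. The ETS core, the most frequent of the 5 words, was found in 4 of the 18 searched genes that rose in the knockout, 3 of the 7 that fell and 67 of the 188 others. These are letter matches, and no binding was measured. Upstream sequences of related genes, such as ZNF90 and ZNF486, are also not independent of each other.

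The day 2 libraries held 27880068 to 39553614 counts. SETD7 mRNA was 55.5 ± 0.71 CPM in wild type (counts per 1e+06 counts after scaling; SD, n = 3) against 31.8 ± 2.56 in knockout cells (log2 fold change −0.80, edgeR adjusted p 9.51e-13), and 3.53 and 1.48 FPKM at day 0. At day 0 the undifferentiated marker POU5F1 stood at 149 (wild type) and 113 FPKM (knockout), and 5 of the 7 undifferentiated markers were higher in the knockout library and 2 lower. Of the 7 mesoderm markers there, KDR stood at 55.8 (wild type) and 69.8 FPKM (knockout), and PDGFRA at 1.49 and 2.11 FPKM. The others, MIXL1 and EOMES among them, were at 1.05 FPKM or less in both libraries. At day 2 MIXL1 stood at 1467 ± 19.3 CPM in wild-type and 1568 ± 29.6 CPM in knockout cells. Marker genes of cell types also moved, where 23.3% of all genes tested were called. Of 7 undifferentiated markers 2 rose (DNMT3B and TDGF1) and 1 fell (NANOG, log2 fold change −0.57). Their summed levels were 2767 to 2775 CPM in the wild-type and 2905 to 2928 CPM in the knockout libraries. Of 7 mesoderm markers 3 rose (MIXL1, KDR and PDGFRA) and 2 fell (T by 0.26 and HAND1 by 0.17 on the log2 scale). The sums were 3928 to 3979 and 4035 to 4087 CPM. Of 2 tested endoderm markers 1, SOX17, fell, at summed levels of both markers of 154 to 160 and 104 to 111 CPM. Of 3 trophoblast and amnion markers 2 fell (48.9 to 49.96 and 40.7 to 42.9 CPM). The only neural marker tested, NES, rose (517 to 541 and 555 to 597 CPM), and the only blood marker tested, RUNX1, was not called (25.6 to 30.2 and 25.3 to 25.7 CPM). The part of these markers in the ZNF results was not tested. In bulk RNA, fewer cells of a type and less RNA per cell cannot be told apart. No label says whether the day 2 replicates came from separate cultures, and the spread behind the p-values may be technical.

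As a family, the ZNF genes did not differ between the genotypes at day 2 beyond the spread of the libraries. Their summed expression was 6819, 6669 and 6717 CPM in the wild-type libraries and 6839, 6727 and 6805 CPM in the knockout libraries. The ranges of the genotypes overlapped, with means of 6735 ± 76.4 and 6791 ± 57.3 CPM (SD, n = 3 each). The median log2 fold change of knockout over wild type was −0.003 over the 239 genes, with the middle 50% between −0.09 and 0.07, and −0.003 over all 11475 genes tested. Against the wild-type mean, the medians of the 3 single knockout libraries were 0.004, −0.022 and −0.001. A positive log2 fold change was seen in 117 of the 239 genes. The interval of 2 standard errors (SE) on either side of the fold change lay within a 1.2-fold change in 119 genes, so for the other genes a change of that size was not bounded.

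Single genes did move. The edgeR quasi-likelihood test, with Benjamini-Hochberg adjustment over all tested genes and a threshold of 0.05, called 27 of the 239 (11.3%), where it called 23.3% of all genes tested. Of the 27, 19 were higher in the knockout (7.95%, against 12.3% of all genes) and 8 lower (3.35%, against 11%). Without wild-type replicate 1, or without wild-type replicate 3, 4 were lower. At an unadjusted p under 0.05 there were 47 ZNF genes (19.7%, against 34.8%). The libraries of the genotypes did not overlap in 55 ZNF genes (23%, against 37.7%). Only ZNF229 was both called and changed by at least 1.5-fold (0.418%, against 1.73%). Among the 10716 tested genes of at least 100 counts the shares were 24.4% called (12.8% higher and 11.6% lower), 36.2% at an unadjusted p under 0.05, 38.8% without overlap and 1.42% called at 1.5-fold. Among the 126 ZNF genes numbered 600 and above with the same count minimum, 21 were called (16.7%), of which 15 were higher (11.9%) and 6 lower (4.76%). In that group 26.2% had an unadjusted p under 0.05, 27% did not overlap and 1.59% were called at 1.5-fold. After removal of trends with GC content and gene length, 41 ZNF genes were called, 20 higher and 21 lower, where 29.3% of all genes were called. The split into higher and lower genes, 70.4% higher in the first fit and 48.8% in the second, thus depends on that step. The ZNF genes had a median GC content of 43.5%, against 47.8% for genes with at least 100 counts.

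**Figure D1:**
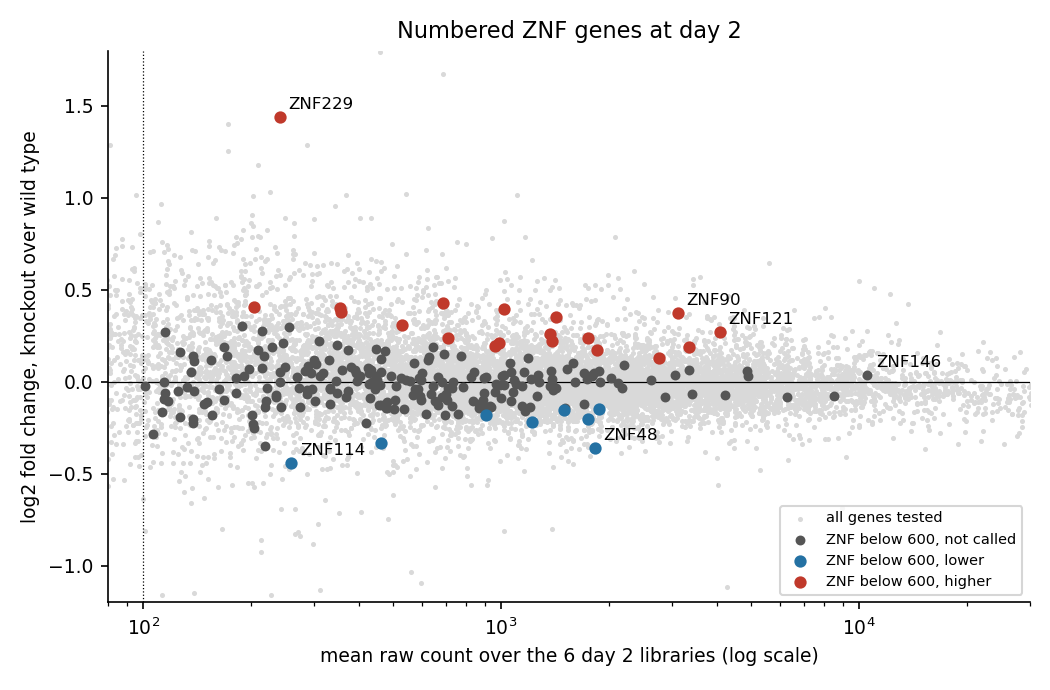
Log2 fold change of knockout over wild type at day 2 (y axis) against mean count over the 6 libraries (x axis, log scale) for the 239 ZNF genes and, in grey, the other tested genes within the axes. Most ZNF genes lie near 0, and ZNF229 stands alone at 1.44.

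The ZNF genes were less abundant than other genes. Their median mean count was 556, against 1262 over the tested genes of at least 100 counts and 1120 over all tested genes. Their median SE of the log2 fold change was 0.083, against 0.059 and 0.062. Within bins of mean count, the test called 2 of 52 ZNF genes and 201 of 1163 other genes between 100 and 250 counts. Between 250 and 500 counts it called 4 of 60 and 289 of 1385, and between 500 and 1000 counts 6 of 59 and 396 of 1897. Between 1000 and 2000 counts the shares were equal at 22.4%, with 11 of 49 ZNF genes and 508 of 2264 others. Above 2000 counts it called 4 of 19 (21.1%) and 1194 of 3768 (31.7%). The share called was thus lower among ZNF genes in 4 of 5 bins, a description that was not tested.

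**Figure D2:**
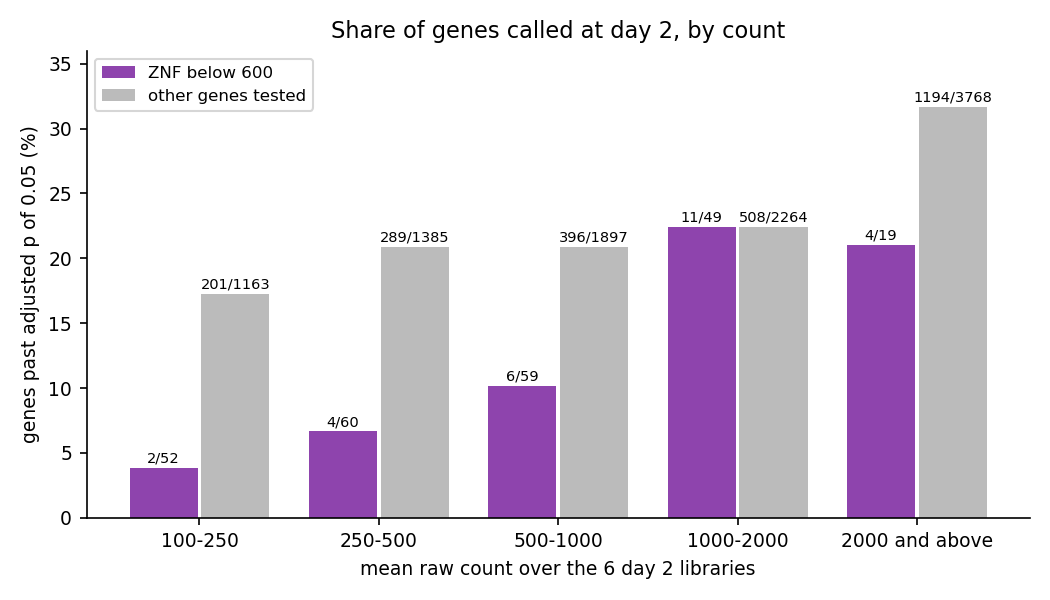
Percent of genes called at day 2 (y axis, from 0) by bin of mean count (x axis) for the ZNF genes and for the other tested genes. Called ZNF genes were 3.85% of the lowest bin and 22.4% of the bin from 1000 to 2000 counts.

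Called genes were spread over domain classes, finger numbers and chromosomes. Among the 152 genes with a KRAB motif 12 rose and 4 fell (10.5% called, median log2 fold change 0.007). Among the 87 without it 7 rose and 4 fell (12.6% called, median −0.018). Of all genes tested, 23.3% were called. Of the 18 SCAN genes 1 (5.56%), ZNF397, rose and none fell. With 16 or more fingers 3 of 42 genes rose and none fell (7.14% called), and with 12 to 15 fingers 3 of 60 rose and 2 fell (8.33%). With 8 to 11 fingers 9 of 77 rose and 3 fell (15.6%). With 4 to 7 fingers 2 of 39 rose and 1 fell, and with 3 or fewer 2 of 21 rose and 2 fell. On chromosome 19 9 of 126 rose and 4 fell (10.3% called, median −0.001). On the other chromosomes 10 of 113 rose and 4 fell (12.4% called, median −0.005). Among 654 other genes of chromosome 19 with at least 100 counts, 157 (24%) were called.

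Clusters were taken as runs of ZNF genes on a chromosome whose starts lie within 1000 kb of the next. The biggest held 37 genes between 55576770 and 58481230 on chromosome 19. None of them was called by edgeR, DESeq2 or limma-voom. At an unadjusted edgeR p under 0.05 there were 4 (10.8%, against 34.8% of all genes). After removal of GC and length trends 3 were called, where 29.3% of all genes were. The run of 15 genes from 36214602 to 37817300 had none called by any of these tools or after that removal, and 1 (6.67%) at an unadjusted edgeR p under 0.05. In the run of 13 genes from 51571298 to 53580269, ZNF83, ZNF160 and ZNF331 rose (23.1% called, near the 23.3% of all genes). The run of 14 genes with ZNF90 had 2 that rose (14.3%). The run of 18 with ZNF229 had 1 that rose, ZNF229 itself, and 1 that fell, ZNF428 (11.1% called).

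**Figure D3:**
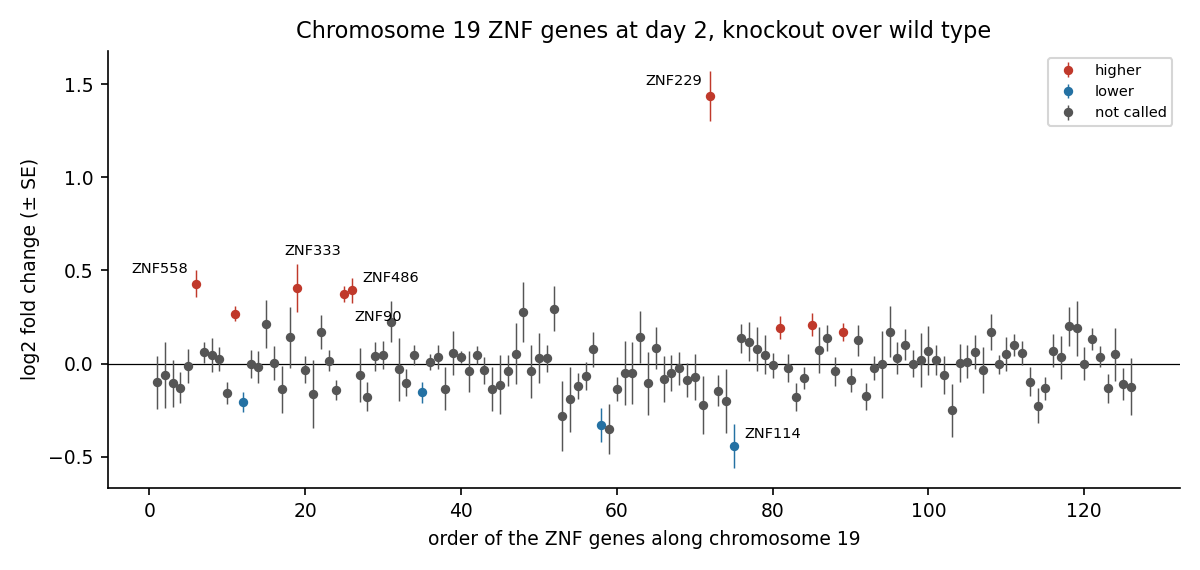
Log2 fold change ± SE of knockout over wild type at day 2 (y axis) for the 126 ZNF genes of chromosome 19 in their order along it (x axis, rank from the first). Raised genes (red) and lowered genes (blue) are few, and the 37 genes at the far right hold none.

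ZNF229, a KRAB gene with 16 finger matches, lies at 44417519 to 44448578 on chromosome 19 (minus strand, GRCh38, ENSG00000278318). Its counts were 120, 96 and 131 in wild type and 415, 371 and 314 in the knockout. After scaling these were 4.34, 2.99 and 4.35 CPM in wild type and 10.4, 10.6 and 10.6 CPM in the knockout. All 3 knockout libraries lay above all 3 wild-type libraries, at means of 10.5 ± 0.132 and 3.89 ± 0.78 CPM. The gene rose 2.71-fold (log2 fold change 1.44, SE 0.13, edgeR adjusted p 4.75e-10), and the interval of 2 SE ran from 1.17 to 1.71. Its exons overlap AC245748.2 on the same strand, so reads of that transcript could be counted with it. Of the 13 other numbered ZNF genes that start within 500 kb, none was called by edgeR, DESeq2 or limma-voom or had an unadjusted edgeR p under 0.05. Their log2 fold changes lay between −0.22 (ZNF112) and 0.18 (ZNF223). The day 0 level of ZNF229 was not analysed here.

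ZNF90 and ZNF486 are adjacent in the order of the 239 genes along chromosome 19, with starts 89234 bases apart, and both carry a KRAB motif. ZNF90 was at 87.5, 80.6 and 81.7 CPM in wild type and 107, 109 and 108 CPM in the knockout. It rose by 0.37 on the log2 scale (SE 0.042, edgeR adjusted p 2.23e-08). ZNF486 was at 27.5, 24.5 and 29 CPM in wild type and 33.6, 36.4 and 36.5 CPM in the knockout. It rose by 0.39 (SE 0.066, edgeR adjusted p 2.79e-05), and in neither gene did the genotypes overlap. Of their 50-base words, 3.94% (ZNF90) and 4.86% (ZNF486) occur in at least 1 other gene, those of ZNF90 most often in ZNF486. Reads that fall wholly in such words cannot be assigned to 1 gene. The share between the 2 genes alone was not counted. Exons of ZNF90 also overlap AC011447.1 on the same strand. Closest of the others, ZNF682 stood at 15.4 ± 1.02 and 17.3 ± 1.41 CPM (edgeR adjusted p 0.144).

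ZNF121 and ZNF561, neighbours with starts 44327 bases apart, moved in opposite directions. ZNF121 was at 120, 116 and 106 CPM in wild type and 142, 133 and 136 CPM in the knockout, a rise of 0.27 (SE 0.042, edgeR adjusted p 1.17e-05). ZNF561 was at 63.9, 54.0 and 57.4 CPM in wild type and 49.9, 51.9 and 50.2 CPM in the knockout. It fell by 0.20 (SE 0.055, edgeR adjusted p 0.00558), without overlap, and its exons lie opposite those of ZNF561-AS1. Without wild-type replicate 1 the fall of ZNF561 was 0.14 and was no longer called (edgeR adjusted p 0.0732). On either side of the pair, ZNF426 and ZNF562 were not called. ZNF426 lay close to the threshold (−0.16, edgeR adjusted p 0.057), its knockout libraries all below the wild-type libraries. ZNF562 was far from it (edgeR adjusted p 0.98). Of the 8 other numbered ZNF genes that start within 500 kb of ZNF121, 1 was called, and 2 after removal of GC and length trends.

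The other most raised genes changed by 1.24-fold to 1.35-fold. The KRAB gene ZNF558 was at 18.7, 17.3 and 17.8 CPM in wild type and 25.5, 23.3 and 23.6 CPM in the knockout (log2 fold change 0.43, edgeR adjusted p 3.45e-05). ZNF333, another KRAB gene, was low, at 4.85, 5.33 and 5.87 CPM in wild type and 6.94, 7.59 and 6.76 CPM in the knockout (0.41, edgeR adjusted p 0.0213). It lost its call when knockout replicate 2, wild-type replicate 1 or wild-type replicate 2 was left out. ZNF185, which encodes a LIM-domain protein of the actin cytoskeleton and not a C2H2 factor, was at 8.14, 9.60 and 10.1 CPM in wild type. In the knockout it was at 13.2, 11.7 and 11.9 CPM (0.40, edgeR adjusted p 0.00388). ZNF367 was at 9.01, 9.41 and 9.99 CPM in wild type and 10.4, 14.8 and 11.9 CPM in the knockout, so knockout replicate 2 stood highest. Its log2 fold change of 0.38 (edgeR adjusted p 0.0116) became 0.23 without that library (edgeR adjusted p 0.166), and its call was also lost without wild-type replicate 1. ZNF462, a 33-finger protein needed for normal brain development, was at 34.0, 42.5 and 37.6 CPM in wild type and 52.5, 45.3 and 47.6 CPM in the knockout (0.35, edgeR adjusted p 0.00053). ZNF514 rose by 0.31 (edgeR adjusted p 0.00723), shares exon sequence with MRPS5 on its strand and lost its call without wild-type replicate 3.

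**Figure D4:**
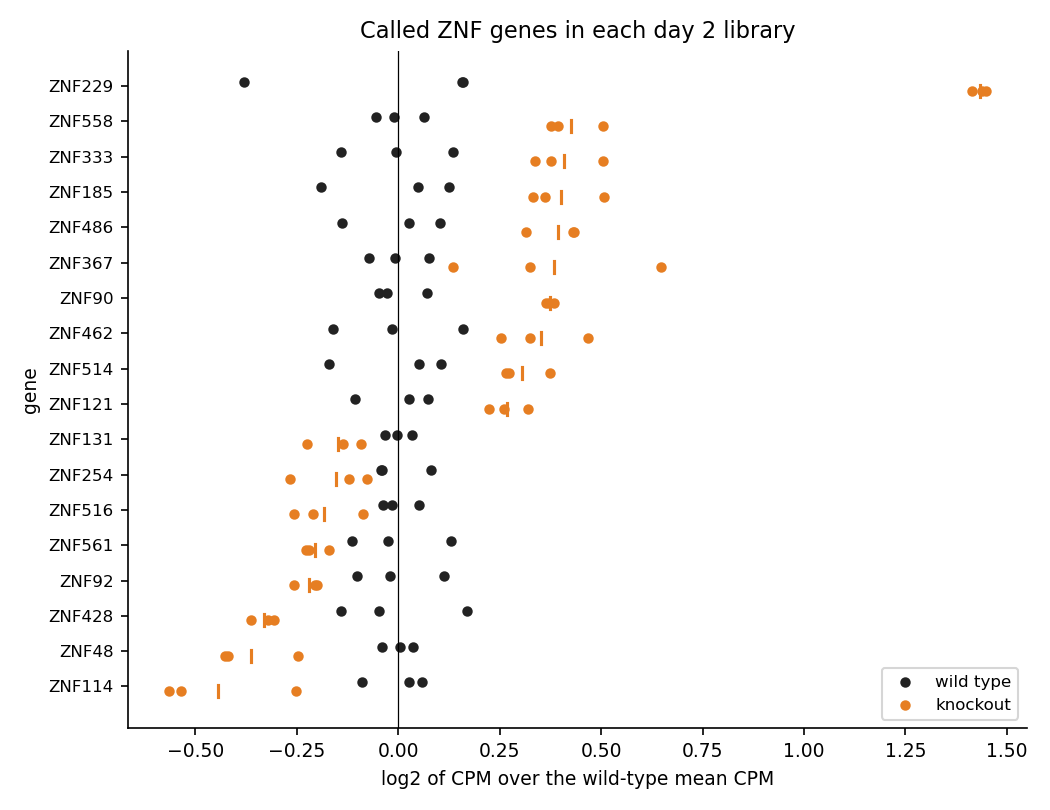
Log2 of CPM over the wild-type mean CPM at day 2 (x axis) for the named raised and lowered ZNF genes (y axis). Each point is 1 of the 3 wild-type (black) or 3 knockout (orange) libraries, and the orange tick is the log2 of the knockout mean over the wild-type mean. The genotypes do not overlap in any gene shown, and ZNF229 has the widest gap.

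Of the 8 genes that fell, ZNF114 fell most. It was at 9.73, 8.79 and 9.52 CPM in wild type and 6.44, 7.84 and 6.32 CPM in the knockout, a fall by 0.44 (SE 0.12, edgeR adjusted p 0.00542), and the antisense transcript ZNF114-AS1 overlaps it. ZNF48, a 12-finger gene without KRAB, had the smallest p, at 65.7, 62.3 and 64.3 CPM in wild type and 54.0, 47.9 and 47.7 CPM in the knockout. It fell by 0.36 (SE 0.053, edgeR adjusted p 3.33e-06). ZNF428 fell by 0.33 (edgeR adjusted p 0.00628), and lost its call without wild-type replicate 3. ZNF92 fell by 0.22 (edgeR adjusted p 0.00626) and lost its call without wild-type replicate 1. In the 8 genes the knockout libraries all lay below the wild-type libraries. ZNF516, known as an activator of brown fat genes, fell by 0.18 (edgeR adjusted p 0.0424), and ZNF254 by 0.15 (edgeR adjusted p 0.047). Both lie close to the threshold: of 14 alternative settings, ZNF516 lost its call in 10 and ZNF254 in 9. ZNF131, a BTB-domain zinc finger protein, fell by 0.15 (edgeR adjusted p 0.0249) and lost its call in 2, without knockout replicate 1 or wild-type replicate 3.

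The remaining 9 called genes rose by 0.13 to 0.26. They are ZNF83, ZNF117, ZNF141, ZNF160, ZNF195, ZNF217, ZNF331, ZNF397 and ZNF589. ZNF217, an oncogene product that works in co-repressor complexes, was at 103, 91.8 and 94.3 CPM in wild type and 113, 102 and 114 CPM in the knockout. Its rise of 0.19 passed the test (edgeR adjusted p 0.00342) although the libraries overlapped, as they did in ZNF141 and ZNF195. The imprinted gene ZNF331 was at 53.7, 52.7 and 54.4 CPM in wild type and 60.2, 60.3 and 60.5 CPM in the knockout (0.17, edgeR adjusted p 0.00826). ZNF117 shares exons with the endogenous retrovirus gene ERV3-1 on its strand. Of these 9, calls were lost under at least 1 setting for ZNF195 (6 of 14 settings), ZNF83 (4), ZNF141 (3) and ZNF160 (2).

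The most abundant genes by CPM were not called. ZNF146, a protein of 10 fingers with no KRAB domain, was at 322 ± 13 CPM in wild type and 329 ± 5.81 CPM in the knockout (edgeR adjusted p 0.495). ZNF207, a spindle protein also known as BuGZ, was at 271 ± 3.71 and 257 ± 8.70 CPM (edgeR adjusted p 0.0846), and the SCAN gene ZNF24 at 200 ± 3.43 and 189 ± 2.14 CPM (edgeR adjusted p 0.0707). ZNF207 and ZNF24 passed the threshold after removal of GC and length trends, with and without the replicate block. ZNF106 and ZNF532 differed by 0.03 and 0.06 on the log2 scale. Among uncalled genes, ZNF283 had a log2 fold change of −0.35 (edgeR adjusted p 0.0565) and ZNF18 one of 0.30 (edgeR adjusted p 0.169); both were chosen after their values were seen.

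Among the ZNF genes grouped by known role, the 3 genes called by edgeR were all in the developmental list. Of 12 listed repressors of transposable elements or regulators of imprints, 8 were among the 239. None was called by edgeR, DESeq2 or limma-voom, and 3 had an unadjusted edgeR p under 0.05 (37.5%, against 34.8% of all genes). After removal of GC and length trends ZNF93 at day 2 (edgeR adjusted p 0.0357) and ZNF587 (edgeR adjusted p 0.0483) were called lower, and ZNF93 also without wild-type replicate 2 (edgeR adjusted p 0.0213). ZNF91, which represses SVA elements, was at 51.7 ± 2.58 and 53.3 ± 1.66 CPM, and ZNF93, which represses LINE-1 elements, at 49.1 ± 2.78 and 44.4 ± 1.197 CPM (edgeR adjusted p 0.0549). ZNF445, a regulator of imprints, was at 67.8 ± 2.87 and 66.2 ± 0.935 CPM. None of the 7 promoter-binding or general activators was called by these tools or at an unadjusted edgeR p under 0.05, ZNF143 standing at 34.0 ± 1.29 and 32.8 ± 1.98 CPM. Of 8 genes of RNA, ribosome or spindle function, none was called by these tools and 1, ZNF207, had an unadjusted edgeR p under 0.05. Of 8 developmental genes, ZNF217 and ZNF462 rose and ZNF516 fell by edgeR (37.5% called, against 23.3% of all genes). DESeq2 and limma-voom each called 2 of the 8 and did not call ZNF516. ZNF423 was also called after removal of GC and length trends.

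Of the 28 tested KRAB cofactors and heterochromatin partners, 1 rose and 6 fell, which is 25% against 23.3% of all genes, with a median of −0.037. After removal of GC and length trends 12 were called, where 29.3% of all genes were. TRIM28, the cofactor that KRAB binds, was at 954, 988 and 1010 CPM in wild type and 941, 938 and 946 CPM in the knockout. It did not pass the test (−0.06, edgeR adjusted p 0.124), but did after removal of GC and length trends (−0.14, edgeR adjusted p 9.71e-06). SETDB1 was at 39.3 ± 1.84 and 38.4 ± 0.876 CPM (edgeR adjusted p 0.717). The co-repressor TRIM24 fell by 0.19 (edgeR adjusted p 0.000124), its relative TRIM33 by 0.16 and the NuRD helicase CHD3 by 0.17. SUMO2 fell by 0.17, SMARCAD1, a remodeller that binds TRIM28, by 0.09 and KIAA1551 by 0.11. ATF7IP, the partner of SETDB1, rose by 0.13 (edgeR adjusted p 0.00696) and lost its call without wild-type replicate 3, while SMARCAD1 lost its call in 8 and KIAA1551 in 5 of 14 settings.

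Sequence shared with other annotated genes limits what the counts can say for a few genes. In 12 genes at least 20% of the 50-base words of the longest transcript occur in another gene. The share was highest in ZNF320 (99.5%) and ZNF468 (99.1%), which share exons with each other. Genes annotated over the same exons were included, so shared words need not come from separate copies. None of these 12 was called by edgeR, DESeq2 or limma-voom, and 3 had an unadjusted edgeR p under 0.05 (25%, against 34.8% of all genes). After removal of GC and length trends 2 were called, where 29.3% of all genes were. Exons of another gene overlap those of 119 of the 239 genes, among them 15 of the 27 called. The strand setting of the counting is not given in the sources used here.

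At day 0, FPKM (reads scaled by transcript length and depth) were available for 236 of the 239 genes, and 232 had at least 1 FPKM in either library. With 1 library per genotype there is no test, and the depth is unknown. ZNF532 (54.4 FPKM in wild type, 69.2 in the knockout), ZNF146 (51.9 and 58.2), ZNF207 (47.5 and 72.3) and ZNF331 (46.4 and 39.0) were the highest in wild type. The median log2 ratio of FPKM + 1, knockout over wild type, was −0.005 over the ZNF genes and −0.032 over all genes. A difference of at least 1.5-fold upwards was seen in 10 ZNF genes (4.31%, against 4.81% of all genes) and downwards in 23 (9.91%, against 8.77%). Among ZNF genes numbered 600 and above, 5.69% were higher and 4.88% lower by that limit.

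ZNF90 had the highest ratio at day 0, with 17.1 FPKM in wild type and 37.7 in the knockout (1.09 on the log2 scale). ZNF264 (0.799 and 2.71 FPKM), ZNF557 (0.761 and 2.17), ZNF398 (10.96 and 20.2) and ZNF485 (2.17 and 4.31) followed. Of these, only ZNF90 was called at day 2. Lowest was ZNF133, with 9.18 FPKM in wild type and 1.99 in the knockout (−1.77). ZNF329 (5.62 and 1.55 FPKM), ZNF281 (22.0 and 9.83), ZNF460 (4.48 and 1.63) and ZNF517 (7.19 and 3.26) were next. ZNF281 is a factor linked to pluripotency in embryonic stem cells, and at day 2 it was at 91.6 ± 3.07 CPM in wild-type and 86.5 ± 2.76 CPM in knockout cells (edgeR adjusted p 0.166). None of these 5 was called at day 2 by edgeR.

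The differences on the 2 days showed little relation across the ZNF genes. Across 232 genes, which are not independent replicates, Pearson's r was −0.014 and Spearman's rho −0.036, and the sign was equal in 114 (49.1%), against 43.6% of all genes. Of the 26 called genes with a day 0 value, 12 had equal signs. A called gene differed by at least 1.5-fold at day 0 in 3 cases. ZNF90 was higher in the knockout on both days, ZNF516 was lower on both (6.04 and 3.37 FPKM), and ZNF185 was lower at day 0 (14.4 and 8.57 FPKM) but higher at day 2.

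**Figure D5:**
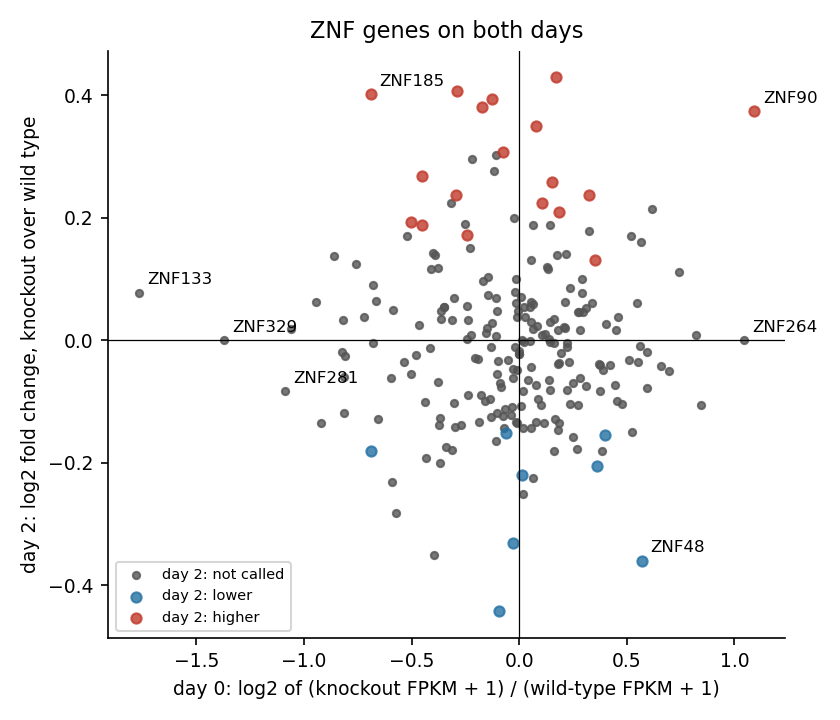
Log2 ratio at day 0 (x axis, FPKM + 1, 1 library per genotype) against log2 fold change at day 2 (y axis, 3 libraries per genotype), knockout over wild type, for 232 ZNF genes. The points form a cloud around 0, with ZNF90 at the right edge (1.09 and 0.37) and ZNF133 at the left edge (−1.77 and 0.08).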

How the data were processed

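The authors deposited gene counts for day 2 and FPKM for day 0, per the file headers. Per the submitters' processing notes, HISAT2, StringTie and the build GRCh38 (hg38) were involved; no version, counting tool or strand setting is given in the sources used here. No genes were removed from the tables before the tests apart from edgeR's own filter. Samples were grouped by the genotype and day in their labels.

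Day 2 counts were scaled by TMM, filtered with filterByExpr and fitted over all 11475 remaining genes with edgeR 4.0.16 (robust quasi-likelihood F test, 2-sided, Benjamini-Hochberg) in R 4.3.3; DESeq2 1.42.0 and limma 3.58.1 were alternatives. SE is the log2 fold change over the square root of F. At day 0, log2 ratios used a pseudocount of 1 FPKM and a minimum of 1 FPKM. The day 2 fit was also tested on simulated counts with 1 dispersion for all genes. It recovered 99% of 100 genes changed 1.5-fold and 31% of 100 genes changed 1.2-fold, with 3 false calls. Only these genes were changed among 11465, whereas 23.3% of all genes were called in the data. With so few changed genes the adjusted threshold is stricter. Changes of 1.2-fold were thus often missed in the simulation, and their recovery in the data was not measured. Gene positions, GC content, overlaps and protein motifs came from GENCODE release 29. The upstream sequences and their motif counts came from RefSeq (GRCh38.p14).

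The members and lists were chosen with earlier results of these data known. Genes were named if among the 10 highest or lowest called members without overlap (8 qualified as lower), the 5 most abundant, those nearest the count minimum, the 5 highest and lowest day 0 ratios, or in the lists. Chosen after the values were seen were the count bins, the comparison with genes of at least 100 counts, the 1.5-fold limit at day 0, the interval of 2 SE within 1.2-fold, the 50-base words with their 20% limit, the genes whose neighbours within 500 kb were read and the promoters printed. Upstream motifs were first counted over 300 bases, where CCGGAAG was present in 44.1% of members, 20.3% of tested genes and 10.7% of promoters; the window was cut to 250 to leave out bases after the RefSeq start. The KRAB and SCAN patterns were adjusted over several passes to catch known KRAB genes before calls were split by them. Python 3.11.15 with pandas 2.3.3, numpy 2.4.6 and matplotlib 3.10.9 was used.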

Additional observations from a re-analysis of the deposited data

Results flagged for a closer look

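For 13 of the 23 called members with a day 0 value whose day 2 libraries did not overlap (56.5%), the single day 0 library of the knockout differed from that of wild type in the opposite direction. The same held for 1484 of 2382 such genes among all genes tested (62.3%), so the share is no result about the members. The difference between the days was not tested, since day 0 has 1 library per genotype and another unit. Higher at day 2 and lower at day 0, on the log2 scale of knockout over wild type, were ZNF83 (0.19 at day 2 and −0.50 at day 0), ZNF121 (0.27 at day 2 and −0.45 at day 0), ZNF185 (0.40 at day 2 and −0.69 at day 0), ZNF331 (0.17 at day 2 and −0.24 at day 0), ZNF333 (0.41 at day 2 and −0.29 at day 0), ZNF367 (0.38 at day 2 and −0.17 at day 0), ZNF397 (0.24 at day 2 and −0.29 at day 0), ZNF486 (0.39 at day 2 and −0.13 at day 0) and ZNF514 (0.31 at day 2 and −0.07 at day 0). Lower at day 2 and higher at day 0 were ZNF48 (−0.36 at day 2 and 0.57 at day 0), ZNF92 (−0.22 at day 2 and 0.01 at day 0), ZNF254 (−0.15 at day 2 and 0.40 at day 0) and ZNF561 (−0.20 at day 2 and 0.36 at day 0).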

How the results depend on the processing

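Of the 27 called members, 14 stayed past the threshold under every one of the 14 settings tried at day 2 (ZNF48, ZNF90, ZNF114, ZNF117, ZNF121, ZNF185, ZNF217, ZNF229, ZNF331, ZNF397, ZNF462, ZNF486, ZNF558 and ZNF589), and 13 lost their call in at least 1. None of the called members changed direction. With GC and length offsets 41 members were called, 21 of them lower, at a median of −0.022, and with the replicate block added 35 were called, 16 of them lower, also at −0.022. The median of all genes was −0.022 in both. Upper-quartile scaling gave a median of 0.012, against 0.013 over all genes. With the offsets CHD4 and DNMT1, at 0.001 and 0.002 without them, turned to −0.065 and −0.071; the cause was not tested. The labels do not say whether the replicate numbers pair the libraries. Same-numbered deviations from the genotype means had correlations of −0.070, −0.074 and −0.038, which cannot settle it. With the replicate numbers as a block 24 members were called, all among the 27. Leaving out 1 library at a time gave 21 to 26 called, 14 to 19 higher and 4 to 10 lower, with 4 lower without wild-type replicate 1 or 3, and medians from −0.014 to 0.0087. The day 0 median log2 ratio of members was −0.0058 with a pseudocount of 0.1 FPKM, 0.013 among the 136 members of at least 5 FPKM and 0.027 when centred on all genes. The median SE was 0.145 among members of 100 to 250 counts and 0.042 above 2000 counts, so small changes are less well bounded at low counts.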
